A study of Mus musculus with 4 samples.

Results

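The p53 pathway and apoptosis core genes described here are 10 mouse genes, taken by symbol from the 55357 genes of the count tables. They are the p53 family genes *Trp53*, *Trp73* and *Trp63*, the p53 antagonists *Mdm2* and *Ppm1d*, the genes *Cdkn1a*, *Ccng1* and *Sesn3*, grouped here as p53 targets, and the apoptosis regulators *Bax* and *Bcl2*. All 10 were present. They were read in nuclei of whole testes from males 8 weeks old, by droplet sequencing of RNA 3′ ends in single nuclei (snRNA-seq), in 2 WT and 2 Dhx37-/- libraries labelled as biological replicates. Dhx37-/- means *Dhx37* flox/flox with Amh-Cre: loxP sites flank exon 2, and the Amh promoter drives Cre in Sertoli cells, so germ cells and other somatic cells keep the gene. How many animals each library held is not given in the sources used here. The comparison between genotypes asks whether genes of the p53 pathway differ in cells beside or beyond the Sertoli cells that lost the helicase. The comparison between classes asks in which testis cells each gene is found.

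p53 is a transcription factor that is stabilised after DNA damage or nucleolar stress and then raises genes that stop the cell cycle or start apoptosis. Its relatives p63 and p73 bind similar DNA, and p63 is known for guarding the genome of germ cells. In the testis, meiotic cells make and repair programmed DNA breaks, and the spermatids that follow repackage their chromatin and pass through transient DNA breaks again.

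The 10 genes were described in 37048 nuclei, of which 12657 (34.2%) passed a gate on marker genes for 1 of 12 classes. Nuclei left ungated were 76.0% and 74.6% in WT against 53.3% and 59.6% in Dhx37-/-. Every comparison of a class between genotypes rests on a gate with that difference. A class takes the suffix -like because its name rests on markers alone. In 10 of the 12 classes every marker of the class had a UMI in each library, the exceptions being the spermatogonial and T cell-like gates. Between 1.03% (Leydig-like) and 47.3% (round spermatid-like) of the nuclei in a class lay near a cut. They were within 0.5 of the score that the gate requires or of the margin it requires over the next class. The gate held 5544 elongating spermatid-like, 1893 round spermatid-like, 1318 late spermatocyte-like and 1140 early spermatocyte-like nuclei. Among somatic cells it held 871 Leydig-like, 498 fibroblast-like, 483 macrophage-like, 468 Sertoli-like, 166 peritubular myoid-like, 130 endothelial-like and 46 T cell-like nuclei. The spermatogonial gate held 100 nuclei with a median of 3 detected markers and 4 marker UMIs and none of its markers among its 10 leading genes, so its values are named by the gate and no more. The elongating spermatid-like gate also had none of its markers among its 10 leading genes, which *Ung*, Gm16175 and Ostm1 headed, but a median of 9 detected markers and 85.5 marker UMIs. Levels are given as CPM, the UMIs (counted RNA molecules) of a gene per 1000000 UMIs of that class in a library, in the order WT replicate 1, WT replicate 2, Dhx37-/- replicate 1, Dhx37-/- replicate 2. The tests took the 7 classes with at least 20 nuclei in every library: the 4 spermatocyte and spermatid classes, and the Leydig-, macrophage- and fibroblast-like classes.

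The promoter windows of 3 members are shown first, because *Cdkn1a* and *Trp73* were among the members that changed most between germ cell classes and because *Cdkn1a* and *Ppm1d* were the members whose windows held a searched motif. The windows are from RefSeq on the GRCm38.p6 build and run from 250 bases before to 50 bases after an annotated transcript start, on the strand of the gene. Of the 10 members, 9 had such a window, 11 windows in all. Capitals mark CATGNNNNNNCATG, the core of a p53 site with its paired half-sites, in *Cdkn1a*, and TGACGTCA, the cAMP response element (CRE), in *Ppm1d*. Both motifs are palindromes and were searched on both strands.
Cdkn1a, upstream start, chr17:29090729-29091028, + strand: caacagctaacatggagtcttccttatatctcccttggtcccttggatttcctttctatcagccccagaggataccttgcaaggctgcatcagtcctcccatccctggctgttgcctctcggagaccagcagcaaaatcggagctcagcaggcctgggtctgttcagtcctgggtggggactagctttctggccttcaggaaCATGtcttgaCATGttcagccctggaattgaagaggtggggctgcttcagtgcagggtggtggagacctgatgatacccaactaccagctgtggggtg
Ppm1d, chr11:85311004-85311303, + strand: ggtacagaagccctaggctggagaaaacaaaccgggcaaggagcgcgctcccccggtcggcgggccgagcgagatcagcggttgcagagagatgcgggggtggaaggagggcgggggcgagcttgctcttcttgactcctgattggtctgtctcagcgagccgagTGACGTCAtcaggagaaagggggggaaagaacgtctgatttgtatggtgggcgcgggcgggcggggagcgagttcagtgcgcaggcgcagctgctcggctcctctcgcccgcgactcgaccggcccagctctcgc
Trp73, downstream start, chr4:154097124-154097423, - strand: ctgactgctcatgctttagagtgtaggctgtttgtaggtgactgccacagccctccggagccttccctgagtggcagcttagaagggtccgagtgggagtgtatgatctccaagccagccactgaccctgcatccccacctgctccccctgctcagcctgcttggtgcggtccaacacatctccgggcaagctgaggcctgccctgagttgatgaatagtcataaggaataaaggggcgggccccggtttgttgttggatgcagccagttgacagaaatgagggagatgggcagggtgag
Trp73, upstream start, chr4:154139826-154140125, - strand: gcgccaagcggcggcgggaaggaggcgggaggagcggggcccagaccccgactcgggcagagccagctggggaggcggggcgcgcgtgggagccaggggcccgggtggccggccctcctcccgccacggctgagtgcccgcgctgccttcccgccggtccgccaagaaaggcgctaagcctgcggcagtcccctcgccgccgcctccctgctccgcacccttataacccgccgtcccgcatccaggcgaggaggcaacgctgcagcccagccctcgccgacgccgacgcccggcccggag
In *Cdkn1a* the pair lay at positions 203 to 216 of the window, and its first base was 48 bases before the annotated start. The same letters were found in 234 of 32851 promoter windows (0.712%) and in none of the windows of 23 further p53 target genes. The CRE of *Ppm1d* lay at positions 166 to 173 and began 85 bases before the start. It was found in 588 windows (1.79%), and in 3 of the 23 target genes, *Btg2*, *Epha2* and *Plk2*. The second *Cdkn1a* window and both *Trp73* windows held neither. These matches describe the letters of the windows only, and 3′ counts cannot tell which of the starts of *Cdkn1a* or *Trp73* was used.

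The libraries held 51797891 to 75611263 UMIs and 8295 to 10030 nuclei, with 3303.5 to 4157 UMIs in the median nucleus, and no more than 29 barcodes were shared by any pair of libraries. *Dhx37* itself, counted over all nuclei, stood at 7.06, 11.8, 10.4 and 10.6 CPM. In Sertoli-like nuclei it had 4, 3, 12 and 17 UMIs. These are counts of 3′ tags per gene and do not show whether exon 2 was present, so they do not check the deletion. Free RNA, estimated from protamine and transition protein transcripts in somatic nuclei, made up 12.4% to 21.5% of nuclear UMIs per library, and 5.47% to 29.9% in single somatic classes. Germ cells make those transcripts, so their classes have no estimate of their own, and the shares given for them assume the value of the library. The share of a member's UMIs that free RNA would supply in a class is therefore given beside the low levels. The early spermatocyte-like gate differed in makeup between genotypes: 24.5% and 15.04% of its WT nuclei lay in the cluster of early spermatocytes (cluster 16, led by *Neto2*), against 52.8% and 76.4% of its Dhx37-/- nuclei. The largest numbers of its other nuclei lay in cluster 4 (late spermatocyte, led by Gm20125; 43, 31, 36 and 30 nuclei), cluster 9 (late spermatocyte, led by *Neb*; 24, 21, 33 and 37) and cluster 10 (round spermatid, led by 4930587E11Rik; 41, 24, 16 and 33). Every result for this class below has to be read with that difference.

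**Figure D1:**
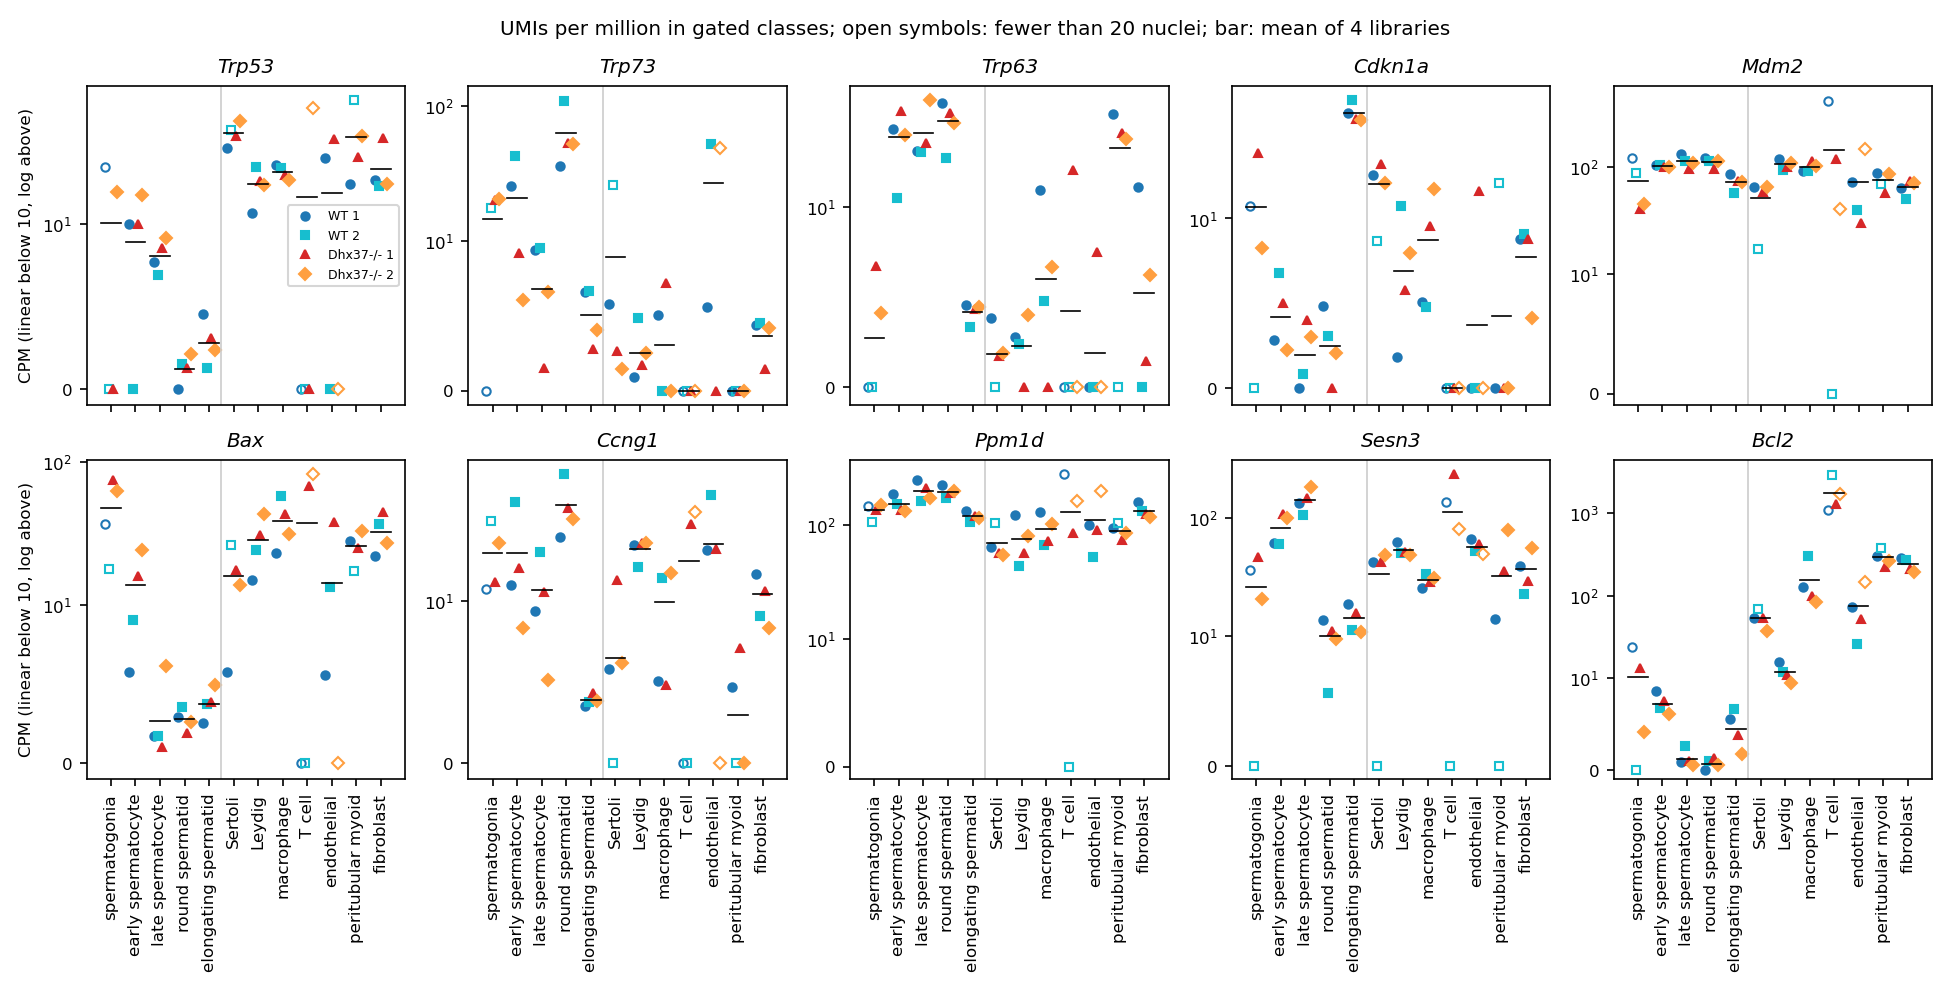
Level of each of the 10 genes (CPM, linear below 10 and logarithmic above) in 12 gated classes, germ cells left of the grey line and somatic cells right of it, with 1 symbol per library and a bar at the mean of 4 libraries. *Cdkn1a* peaks in elongating spermatids (43.98 to 59.1 CPM), *Trp73* and *Ccng1* in round spermatids, *Sesn3* among germ cells in late spermatocytes (105.7 to 185.8 CPM), and *Bcl2* in T cells; open symbols stand on fewer than 20 nuclei.

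*Trp53*, *Trp73* and *Trp63* had 3 different patterns across the testis: *Trp53* was higher in the somatic classes than in spermatids, *Trp73* was highest in round spermatid-like nuclei, and *Trp63* was spread from early spermatocyte-like to round spermatid-like nuclei. The few peritubular myoid-like nuclei, a somatic class, also held *Trp63*. *Trp53* (ENSMUSG00000059552), the gene of p53 itself, was a sparse transcript with 907 UMIs in all nuclei together. It stood at 32.8, 43.3, 39.3 and 49.8 CPM in Sertoli-like nuclei (41.3 ± 7.14, SD, n = 4), the highest mean of the 12 classes, on 17, 5, 45 and 105 UMIs. Peritubular myoid-like nuclei had 18.7, 68.7, 28.3 and 39.4 CPM on 4 to 8 UMIs per library, a range that spans the Sertoli-like values. Fibroblast-like nuclei followed with 19.8, 18.2, 38.2 and 18.7 CPM, macrophage-like nuclei with 25.3, 24.0, 21.6 and 20.0 CPM, and Leydig-like nuclei with 12.002, 24.3, 19.7 and 18.5 CPM. These 3 somatic classes were not separated by the test described below. In germ cells *Trp53* stood at 10.0, 0, 10.0 and 15.7 CPM in early spermatocyte-like nuclei, where the 0 of WT replicate 2 allows up to 6.77 CPM, and at 7.69, 6.93, 8.54 and 9.16 CPM in late spermatocyte-like nuclei. It fell to 4.56, 1.25, 3.10 and 2.35 CPM in elongating spermatid-like nuclei, where free RNA would supply 70.9% of its 43 UMIs, and 13 UMIs were counted in round spermatid-like nuclei. Free RNA would supply 118.8% of those 13 UMIs, so no level apart from free RNA was read from them.

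Neighbouring classes in the order of a gene's mean CPM were compared with edgeR's quasi-likelihood test over 19014 genes, with library as a block and Benjamini-Hochberg adjusted p-values, which gave 60 steps for the 10 genes. Of these, 26 passed an adjusted p of 0.05, and the share of all genes that passed is given once for each contrast, where it is first used. For *Trp53*, Leydig-like exceeded early spermatocyte-like nuclei by 1.26 on the log2 scale (SE 0.38, adjusted p = 0.00415), a contrast that 62.9% of all genes passed. Late spermatocyte-like exceeded elongating spermatid-like nuclei by 0.92 (SE 0.41, adjusted p = 0.0428), where 71.9% of genes passed. The steps from fibroblast- to macrophage-like (22.8% of genes), from macrophage- to Leydig-like (33.6%), from early to late spermatocyte-like (37.6%) and from elongating to round spermatid-like nuclei (62.2%) did not pass for *Trp53*. The Leydig-like step was lost when the classes were taken from clusters, when gate and cluster were combined and when classes were scaled by library totals. The late spermatocyte-like step was lost without WT replicate 2 or either Dhx37-/- replicate, without doublets and with the study limits on all barcodes.

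*Trp73* (ENSMUSG00000029026) encodes p73, a relative of p53 known in the testis for keeping germ cells attached to Sertoli cells. Round spermatid-like nuclei held it at 36.1, 110.5, 53.4 and 52.7 CPM (63.2 ± 32.6, SD, n = 4). WT replicate 2 was the highest and WT replicate 1 the lowest, so both Dhx37-/- libraries lay between the WT libraries. The level in early spermatocyte-like nuclei was 25.8, 42.9, 9.18 and 6.08 CPM, and late spermatocyte-like and elongating spermatid-like nuclei held 1.51 to 9.53 CPM. The somatic Leydig-, macrophage- and fibroblast-like classes had 0 to 5 UMIs per library. Round spermatid-like exceeded early spermatocyte-like nuclei by 2.54 (SE 0.36, adjusted p = 1.49e-07, 64% of genes passing), and this held in all 13 other settings. Steps were run in these 13 settings only, and not with free RNA subtracted or with a block for replicate number or crossed pairs. The step from early to late spermatocyte-like nuclei (1.27, SE 0.44, adjusted p = 0.0213) reversed to -0.24 when classes were taken from clusters, and was lost without either WT replicate, without Dhx37-/- replicate 1 and with gate and cluster combined. Within the early gate, the 638 nuclei inside cluster 16 held 7 *Trp73* UMIs (2.22 CPM) and the 502 nuclei outside it 60 UMIs (26.0 CPM), so the early spermatocyte-like value came mostly from nuclei of other clusters. The steps from late to elongating spermatid-like nuclei, from there to fibroblast-like nuclei (73.5% of genes) and among the somatic classes did not pass.

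Clusters placed the *Trp73* peak more finely. Cluster 10, a round spermatid cluster led by 4930587E11Rik, held 44.5% of all *Trp73* UMIs with 13.3% of all UMIs, at 66.5, 145.6, 73.8 and 59.0 CPM. The round spermatid clusters 7, 6 and 5 followed with means of 65.7, 50.3 and 35.0 CPM (cluster 5 has that name from 50.0% of 210 gated nuclei, with 58 early and 35 late spermatocyte-like nuclei among the others), while cluster 16 of early spermatocytes had 2.65 CPM. WT replicate 2 had the highest *Trp73* level in all 4 round spermatid clusters. The same held for 1040 of the 10456 genes above 10 CPM there (9.95%), against 11.9% for WT replicate 1, 3.55% for Dhx37-/- replicate 1 and 3.23% for Dhx37-/- replicate 2. The genes whose level followed that of *Trp73* most closely over the 28 sums of 7 classes and 4 libraries were Gm44196, *Pdzk1ip1* and *Gpr158* (Pearson's r of 0.91, 0.91 and 0.90 on log2(CPM + 1)), a description in which all points share libraries and depth.

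*Trp63* (ENSMUSG00000022510), the p63 gene, was found at 43.9, 19.95, 38.0 and 33.0 CPM in round spermatid-like, 22.2, 21.7, 24.6 and 45.3 CPM in late spermatocyte-like and 30.1, 11.3, 39.2 and 27.8 CPM in early spermatocyte-like nuclei. The ranges of these 3 classes overlapped. Elongating spermatid-like nuclei held 3.33 to 4.56 CPM and Leydig-like nuclei 0 to 3.99 CPM, of which free RNA would supply 48.7%. Early spermatocyte-like exceeded macrophage-like nuclei by 2.09 (SE 0.55, adjusted p = 0.00184, 49.2% of genes passing) in this and in 13 of 13 other settings. The smaller steps from round spermatid-like to late spermatocyte-like nuclei (0.70, adjusted p = 0.0481, 64.8% of genes) and from elongating spermatid-like to Leydig-like nuclei (1.25, adjusted p = 0.0372, 79.1% of genes) passed in 5 and 4 of 13 other settings. Among clusters *Trp63* peaked elsewhere than *Trp73*: cluster 6, a round spermatid cluster led by *Eya4*, stood at 107.8, 44.6, 55.9 and 55.6 CPM with 24.5% of its UMIs, and the spermatocyte cluster 9 had a mean of 35.7 CPM. Peritubular myoid-like nuclei held *Trp63* at 37.3, 0, 28.3 and 26.3 CPM on 8, 0, 8 and 4 UMIs. Their mean of 23.0 CPM was near the 27.1 CPM of early spermatocyte-like nuclei. The 0 of WT replicate 2 allows up to 51.5 CPM, and free RNA would supply 5.41% of these *Trp63* UMIs. Its closest genes were *Dnah7c*, *Rimklb* and Gm34585 (r of 0.90, 0.89 and 0.89), and those of *Trp53* were *Txndc15*, *Crtc1* and *Ythdf2* (r of 0.95, 0.93 and 0.92).

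**Figure D2:**
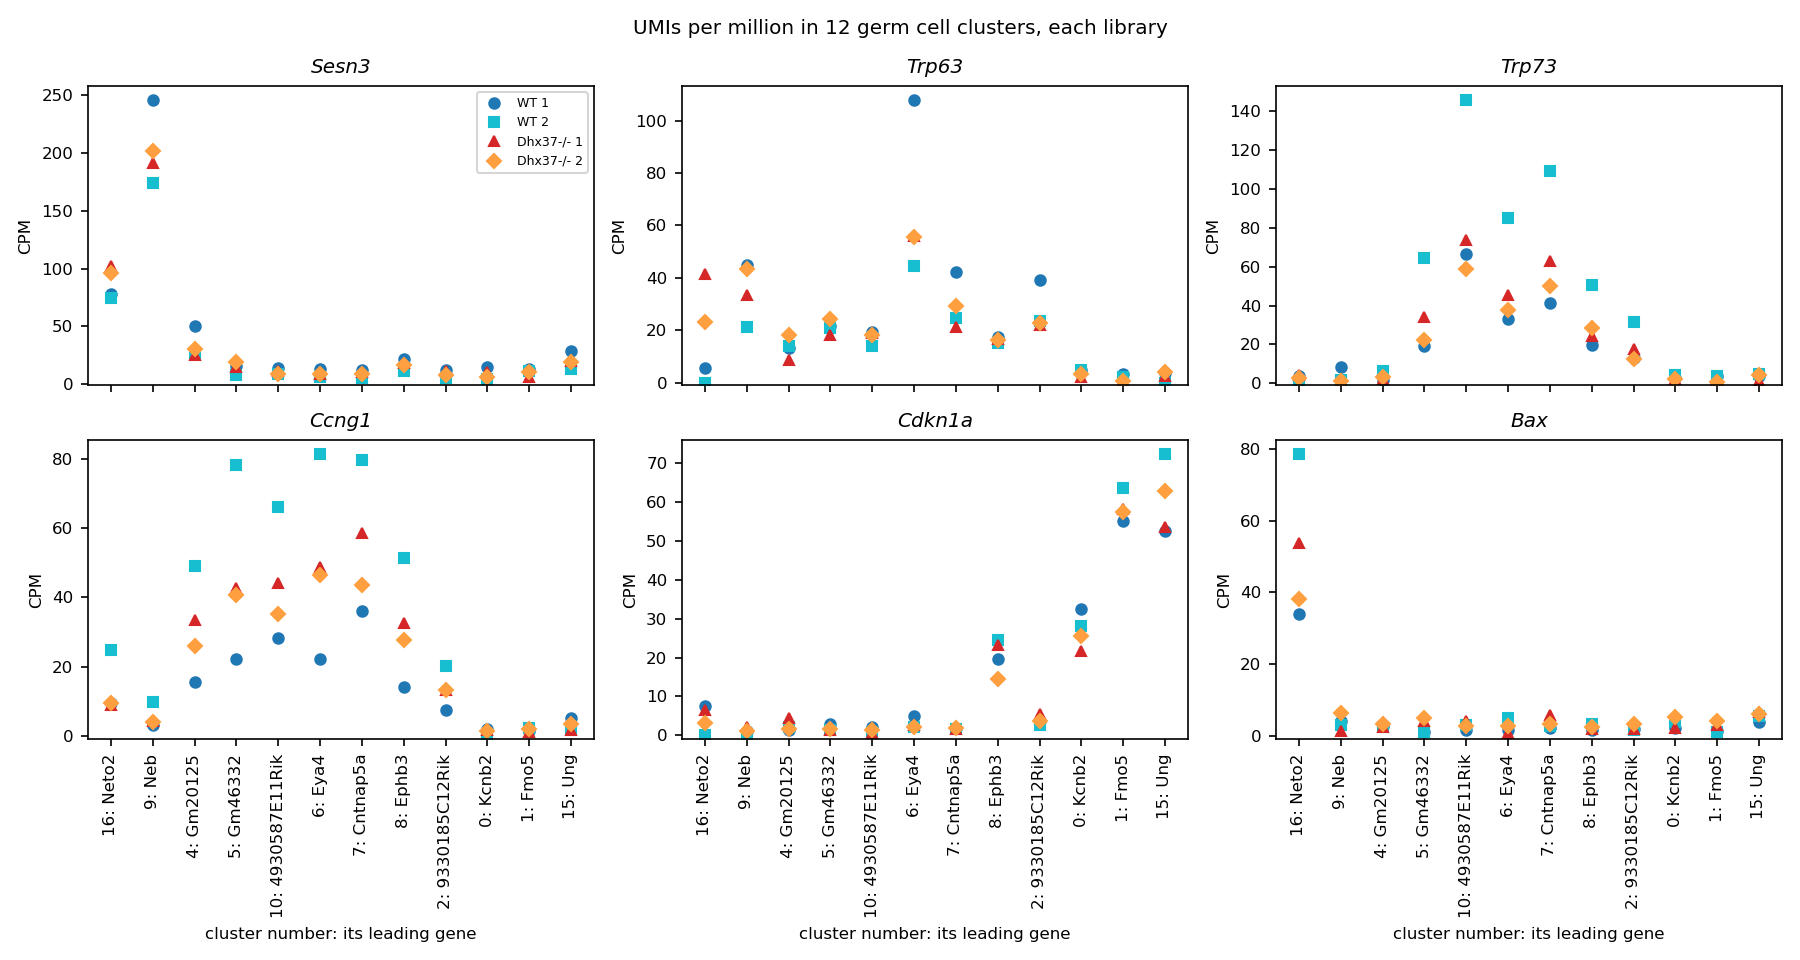
CPM of 6 of the genes in 12 germ cell clusters, 1 symbol per library, on linear axes, with each cluster named by its number and leading gene; the 12 are drawn from early spermatocyte to late spermatid by the classes of their gated nuclei. *Sesn3* stands highest in cluster 9 (174.3 to 246.1 CPM), *Trp63* in cluster 6, *Trp73* in cluster 10, *Bax* in cluster 16, and *Cdkn1a* in clusters 1 and 15, while WT replicate 2 lies above the other libraries for *Trp73* and *Ccng1* in the round spermatid clusters.

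The p53 antagonists *Mdm2* and *Ppm1d* were the most counted of the 10 genes. *Mdm2* (ENSMUSG00000020184), the ubiquitin ligase that marks p53 for degradation and is itself a p53 target, had 13866 UMIs. Its levels were 133.3, 113.5, 94.9 and 107.9 CPM in late spermatocyte-like, 120.9, 113.1, 95.9 and 113.6 CPM in round spermatid-like, 119.1, 94.6, 100.6 and 109.8 CPM in Leydig-like and 103.3, 103.7, 99.3 and 99.2 CPM in early spermatocyte-like nuclei. Fibroblast-like nuclei were the lowest of the 7 tested classes (64.5 ± 10.5, SD, n = 4), and Sertoli-like nuclei had 65.5, 17.3, 58.5 and 65.0 CPM, the second on 2 UMIs. Leydig-like exceeded early spermatocyte-like nuclei by 0.57 (SE 0.17, adjusted p = 0.00398) and elongating spermatid-like exceeded fibroblast-like nuclei by 0.67 (SE 0.18, adjusted p = 0.00145). Both steps were lost with library totals alone, at 0.064 and 0.13, and passed in the other 12 settings. Late and round spermatid-like nuclei had like CPM, but the fit, which scales classes by TMM, put the late class lower by 0.50 on the log2 scale (adjusted p = 0.00637), and with library totals alone the difference was 0.018. That call was also lost with no filter on low counts and without either Dhx37-/- replicate. The round spermatid-like and Leydig-like classes (78.8% of genes passing) were not separated. Free RNA held *Mdm2* at 106.1 to 143.1 CPM and would supply 12.96% to 33.4% of its UMIs in the 7 classes.

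*Ppm1d* (ENSMUSG00000020525), the gene of the phosphatase Wip1 that removes activating phosphates from p53 and from damage kinases, was the most counted member with 21941 UMIs. Late spermatocyte-like nuclei held 246.9, 160.3, 209.0 and 170.6 CPM, and round spermatid-like nuclei held 221.3, 170.9, 189.9 and 198.8 CPM. In early spermatocyte-like nuclei it stood at 186.5, 151.1, 136.1 and 131.4 CPM, and in Leydig-like nuclei at 122.8, 43.7, 56.6 and 80.4 CPM. WT replicate 1 had the highest level in 15 of 18 clusters. Round spermatid-like exceeded early spermatocyte-like nuclei by 0.99 (SE 0.18, adjusted p = 1.47e-05). The step also passed in all 13 other settings, at 0.39 to 1.67. The mean CPM of these classes was 195.2 and 151.3, and their TMM factors were 0.831 and 1.254. Elongating spermatid-like exceeded macrophage-like nuclei by 1.00 (SE 0.20, adjusted p = 3.97e-05, 68.1% of genes passing) in all but the scaling by library totals. As for *Mdm2*, late spermatocyte-like nuclei were fitted lower than round spermatid-like nuclei, by 0.51 (adjusted p = 0.0119), although their mean CPM was level. That call was lost with library totals, with no filter on low counts and without WT replicate 2 or Dhx37-/- replicate 2. *Ppm1d* was also the most abundant member in free RNA (242.7 to 272.2 CPM), which would supply 19.4% of its round spermatid-like and 57.2% of its macrophage-like UMIs. The closest genes were *Mybl2*, *Lrp5* and *Srd5a1* for *Mdm2* (r of 0.79, 0.79 and 0.78) and *Pabpc2*, *Mapk10* and *Pom121l2* for *Ppm1d* (r of 0.89, 0.88 and 0.87).

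Among the germ cell classes, *Cdkn1a*, *Ccng1* and *Sesn3*, grouped here as p53 targets, were each highest at a different stage. *Cdkn1a* (ENSMUSG00000023067), whose product p21 inhibits cyclin-dependent kinases, was highest in elongating spermatid-like nuclei at 49.2, 59.1, 44.7 and 43.98 CPM (49.2 ± 6.98, SD, n = 4) on 97, 142, 288 and 206 UMIs. Free RNA would supply 4.27% of those UMIs. Sertoli-like nuclei came next at 19.3, 8.66, 22.7 and 17.1 CPM, followed by macrophage-like (4.79 to 15.6 CPM), fibroblast-like (4.15 to 9.08 CPM) and Leydig-like nuclei (1.85 to 12.1 CPM). The spermatogonial gate had 12.2, 0, 26.9 and 8.27 CPM on 1, 0, 4 and 2 UMIs, a mean between those of the Sertoli-like and macrophage-like classes with no order that so few UMIs can show. In contrast, round spermatid-like nuclei held 4.87, 3.07, 0 and 2.11 CPM and late spermatocyte-like nuclei 0 to 4.02 CPM, so no library of those classes reached the elongating range. Free RNA would supply 83.0% and 84.5% of these 19 and 15 UMIs, and no level apart from free RNA was read from them. Elongating spermatid-like exceeded macrophage-like nuclei by 2.98 (SE 0.45, adjusted p = 3.24e-07) in all 13 other settings. Leydig-like exceeded early spermatocyte-like nuclei by 1.36 (SE 0.55, adjusted p = 0.0316) in 8 of 13 other settings, and free RNA would supply 53.3% of the 18 early spermatocyte-like UMIs. The macrophage-, fibroblast- and Leydig-like nuclei were not separated (20.1% of genes passing between the last pair).

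Among spermatid clusters *Cdkn1a* stood at 19.6, 24.4, 23.2 and 14.6 CPM in cluster 8 (led by *Ephb3*, where 53.7% of 123 gated nuclei were elongating spermatid-like), 32.5, 28.2, 21.6 and 25.6 CPM in cluster 0 (*Kcnb2*), 55.0, 63.5, 58.0 and 57.3 CPM in cluster 1 (*Fmo5*) and 52.6, 72.3, 53.5 and 62.7 CPM in cluster 15 (*Ung*). The ranges of clusters 8 and 0 overlapped, as did those of clusters 1 and 15, while every library was higher in clusters 1 and 15 than in clusters 8 and 0. Cluster 2 (led by 9330185C12Rik), where 64.8% of 315 gated nuclei were elongating spermatid-like, held it at only 3.74, 2.61, 5.59 and 3.70 CPM. In cluster 3 (led by mt-Cytb, 46.6% of 455 gated nuclei) it stood at 5.15, 12.1, 21.99 and 17.6 CPM. Clusters 1, 15 and 0 held 35.5%, 16.5% and 21.7% of its UMIs. *Trp53* was near its lowest level in the same elongating spermatid-like class, at 1.25 to 4.56 CPM. The closest genes to *Cdkn1a* were Gm49595, *Mphosph6* and *Arpp19* (r of 0.90, 0.89 and 0.89).

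*Ccng1* (ENSMUSG00000020326), the cyclin G1 gene, was highest in round spermatid-like nuclei at 27.3, 73.7, 43.1 and 36.1 CPM (45.1 ± 20.2, SD, n = 4) and, among the 7 tested classes, lowest in elongating spermatid-like nuclei at 3.55, 3.75, 4.34 and 3.84 CPM. Leydig-like nuclei held 24.0, 16.98, 24.9 and 24.95 CPM and early spermatocyte-like nuclei 12.9, 47.4, 16.7 and 8.32 CPM. As with *Trp73*, WT replicate 2 was the highest library in all 4 round spermatid clusters, at 65.9 to 81.3 CPM against 22.1 to 36.1 CPM in WT replicate 1. Round spermatid-like exceeded Leydig-like nuclei by 0.89 (SE 0.30, adjusted p = 0.00702), a step lost without WT replicate 2 or Dhx37-/- replicate 1. Leydig-like exceeded early spermatocyte-like nuclei by 1.06 (SE 0.34, adjusted p = 0.00725), a step lost without Dhx37-/- replicate 2 or with library totals. The difference between round and elongating spermatid-like nuclei was 3.26 (SE 0.33, adjusted p = 4.69e-11), and free RNA would supply 31.5% of the elongating spermatid-like UMIs. The genes nearest to it were Gm38381, Gm16153 and *Zbtb41* (r of 0.89, 0.85 and 0.84).

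*Sesn3* (ENSMUSG00000032009), a sestrin that restrains mTORC1 signalling under stress, stood at 135.8, 105.7, 149.7 and 185.8 CPM in late spermatocyte-like nuclei (144.3 ± 33.2, SD, n = 4). Early spermatocyte-like nuclei had 61.7, 60.9, 108.5 and 99.8 CPM, and Leydig-like nuclei 62.8, 50.95, 51.4 and 48.9 CPM. Outside the tested classes, the 46 T cell-like nuclei held 19 *Sesn3* UMIs, of which free RNA would supply 4.19%. Round spermatid-like nuclei were the lowest at 13.7, 5.63, 10.9 and 9.76 CPM, of which free RNA would supply 54.6%. Late exceeded early spermatocyte-like nuclei by 0.89 (SE 0.20, adjusted p = 6.53e-04) in all 13 other settings, and late spermatocyte-like exceeded round spermatid-like nuclei by 3.40 (SE 0.24, adjusted p = 1.75e-14). Cluster 9, led by *Neb*, held 30.4% of *Sesn3* UMIs with 4.69% of all UMIs, at 246.1, 174.3, 191.4 and 201.7 CPM. Leydig-like against fibroblast-like nuclei (0.79, adjusted p = 0.0206) and elongating against round spermatid-like nuclei (0.68, adjusted p = 0.0187) passed in 8 and 7 of 13 other settings. Its closest genes were *Itfg1*, *Ccl25* and *Rif1* (r of 0.95 each).

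*Bax* and *Bcl2*, the pair whose proteins open and guard the mitochondrial outer membrane in apoptosis, were both higher in somatic classes than in late germ cells. *Bax* (ENSMUSG00000003873), the pore-forming killer, stood at 22.8, 57.5, 43.1 and 31.2 CPM in macrophage-like, 21.99, 36.3, 44.1 and 27.0 CPM in fibroblast-like and 14.8, 24.3, 30.6 and 42.9 CPM in Leydig-like nuclei, which were not separated. Early spermatocyte-like nuclei had 5.74, 9.02, 15.9 and 24.0 CPM. The spermatogonial gate had the highest mean, with 36.5, 17.6, 74.1 and 61.99 CPM on 3, 1, 11 and 15 UMIs. In late spermatocyte-like and round spermatid-like nuclei free RNA would supply 80.8% and 82.4% of the 18 and 23 *Bax* UMIs, so no level apart from free RNA was read from them. Early spermatocyte-like exceeded elongating spermatid-like nuclei by 1.16 (SE 0.34, adjusted p = 0.00313, 71.2% of genes passing) in all 13 other settings, although free RNA would supply 61.4% of the 62 elongating spermatid-like UMIs. Leydig-like exceeded early spermatocyte-like nuclei by 1.47 (SE 0.31, adjusted p = 1.21e-04), but by -0.0038 when classes were taken from clusters, and did not pass with gate and cluster combined. The early spermatocyte cluster 16 had the highest mean *Bax* level of the 18 clusters, at 34.1, 78.7, 53.9 and 38.2 CPM, and 24.0% of its UMIs. In single Dhx37-/- libraries other clusters were higher, as cluster 14 (Leydig) at 44.3 CPM in Dhx37-/- replicate 2. Inside the early gate, with the libraries pooled, nuclei in cluster 16 stood at 29.1 CPM and the others at 4.34 CPM.

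*Bcl2* (ENSMUSG00000057329), which keeps that pore closed, was highest in T cell-like nuclei and in the stromal and macrophage-like classes. The 46 T cell-like nuclei held 1106, 2954, 1315 and 1712 CPM, on 8, 7, 78 and 84 UMIs. Peritubular myoid-like nuclei had 308.1, 377.7, 226.7 and 262.6 CPM, fibroblast-like nuclei 285.9, 272.3, 210.2 and 197.3 CPM, macrophage-like nuclei 129.0, 306.8, 100.6 and 84.6 CPM, and Sertoli-like nuclei 54.0, 69.3, 54.1 and 37.5 CPM. Leydig-like nuclei stood at 15.7, 12.1, 10.98 and 9.48 CPM. Late spermatocyte-like and round spermatid-like nuclei had 7 and 6 UMIs in all libraries together, of which free RNA would supply 69.0% and 95.4%, so no level apart from free RNA was read from them. Macrophage-like exceeded Leydig-like nuclei by 3.07 (SE 0.26, adjusted p = 3.25e-12) in all 13 other settings. Fibroblast-like exceeded macrophage-like nuclei by 0.91 (SE 0.22, adjusted p = 0.00149), which became -0.44 (adjusted p = 0.103) when classes were taken from clusters and was lost without Dhx37-/- replicate 1. In cluster 11, the macrophage cluster, 89.7% of the 534 gated nuclei were macrophage-like, but these held only 195 of its 695 *Bcl2* UMIs. Leydig-like exceeded early spermatocyte-like nuclei by 1.18 (SE 0.33, adjusted p = 0.00212), and elongating spermatid-like exceeded late spermatocyte-like nuclei by 2.41 (SE 0.45, adjusted p = 1.12e-05). The former was lost with library totals (0.67), with classes from clusters (0.40) and with gate and cluster combined (0.40), and the latter, whose low end is the 7 UMIs above, with classes from clusters (0.74). The closest genes were *Glud1*, *Rac1* and *Atg16l1* for *Bax* (r of 0.95, 0.95 and 0.95) and *Rhob*, *Trerf1* and *Acvrl1* for *Bcl2* (r of 0.96, 0.94 and 0.93).

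Between genotypes, 1 of the 48 pairs of a member and a class that held enough UMIs to be tested passed: *Trp73* in early spermatocyte-like nuclei, lower in Dhx37-/-. The background for that class was high. Of the 12951 genes tested there 1830 passed, which is 14.1%, with 767 higher and 1063 lower in Dhx37-/-. In the other 6 classes the share of genes that passed was 0% in late spermatocyte-like nuclei (3228 of 14718 genes had an unadjusted p under 0.05), 0.00751% in round spermatid-like, 0.0359% in elongating spermatid-like, and 0% in Leydig-like, macrophage-like and fibroblast-like nuclei (690, 897 and 782 genes at an unadjusted p under 0.05). DESeq2 called 124 genes higher and 66 lower in late spermatocyte-like, 0 and 1 in Leydig-like, 8 and 5 in macrophage-like and 0 and 0 in fibroblast-like nuclei, none of them a member. At an unadjusted p under 0.05 stood 8 of the 48 pairs (16.7%), near the 14% of all gene and class tests that did so (12320 of 88139), and in early spermatocyte-like nuclei, which held 3 of the 8, 35% of all genes did. The other 22 of 70 pairs fell under the filter on low counts.

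**Figure D3:**
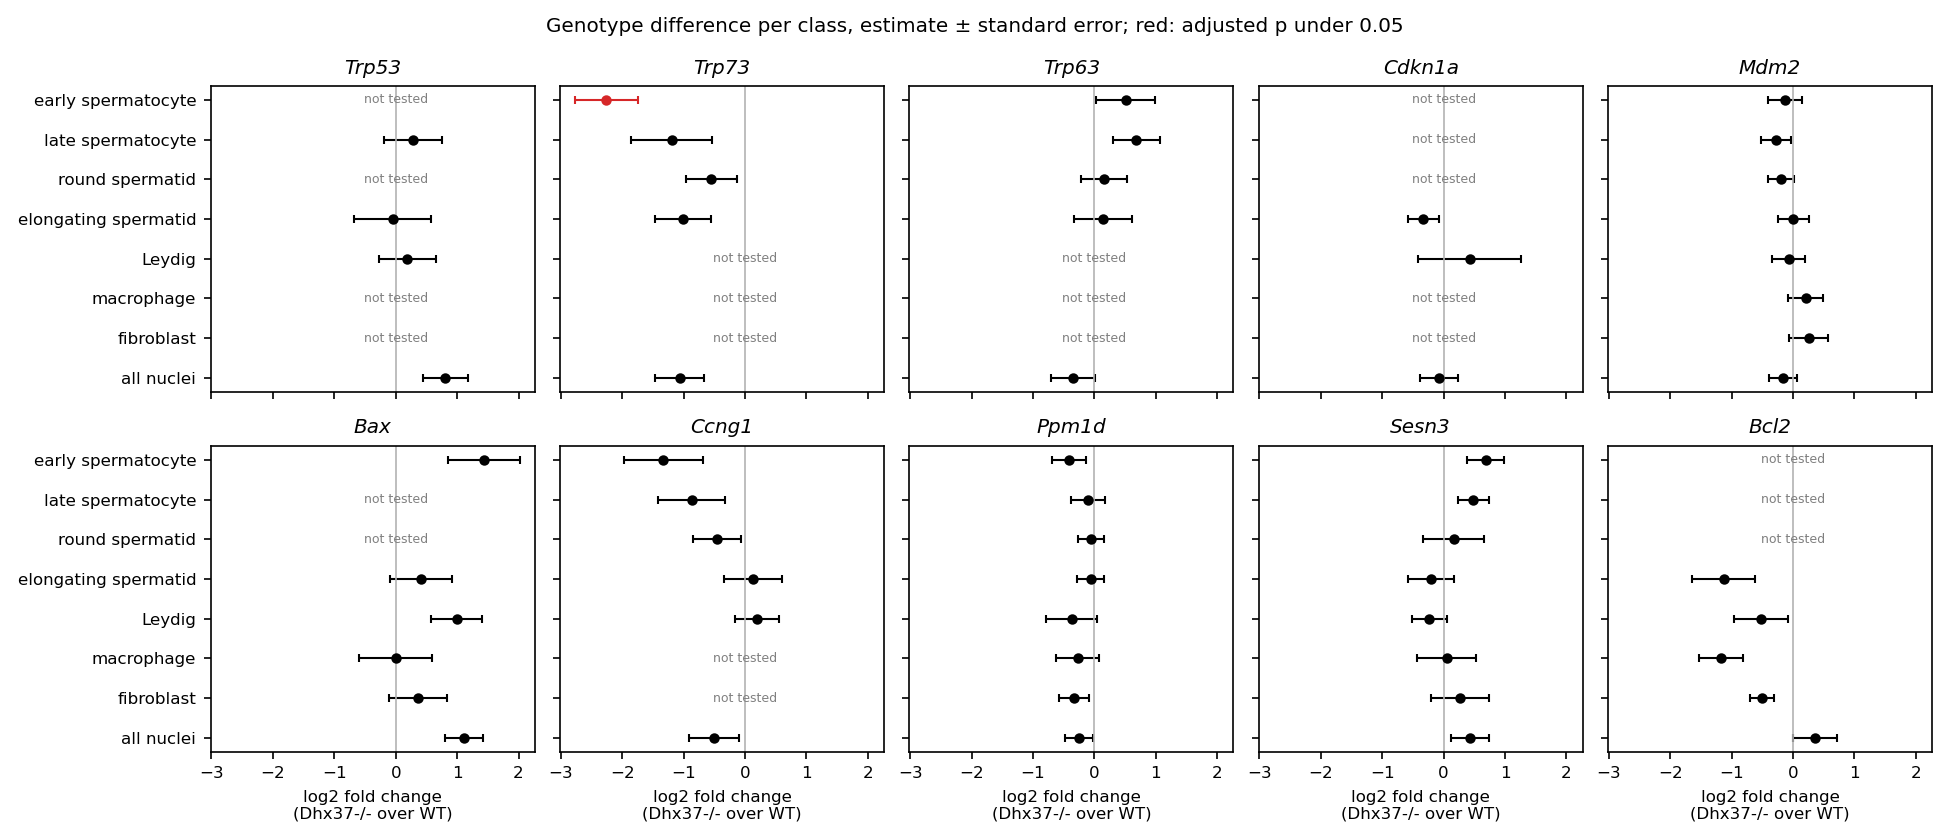
Log2 fold change of each gene between genotypes (Dhx37-/- over WT) in 7 gated classes and over all nuclei, as estimate ± standard error from edgeR, with grey text where too few UMIs were counted for a test. The single red point is *Trp73* in early spermatocytes (-2.26), and the other estimates, black, did not pass an adjusted p of 0.05.

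*Trp53* itself was tested in 3 of the 7 classes and did not pass in any. In late spermatocyte-like nuclei, 7.69 and 6.93 CPM in WT stood against 8.54 and 9.16 CPM in Dhx37-/- (log2 fold change 0.29, SE 0.47, adjusted p = 0.757). In elongating spermatid-like nuclei the estimate was -0.05 (SE 0.62, adjusted p = 0.990) and in Leydig-like nuclei 0.19 (SE 0.46, adjusted p = 0.985), and the genotypes overlapped in both. In Sertoli-like nuclei, the class with the deletion, which were tested with at least 10 nuclei per library, *Trp53* gave 0.26 (SE 0.40, adjusted p = 0.901), and 0% of the 10240 genes tested there passed (886 at an unadjusted p under 0.05). *Cdkn1a* was tested in 2 classes. In elongating spermatid-like nuclei, 49.2 and 59.1 CPM in WT stood above 44.7 and 43.98 CPM in Dhx37-/- without overlap, and the estimate was -0.33 (SE 0.25, adjusted p = 0.757). In Leydig-like nuclei, 1.85 and 12.1 CPM in WT enclosed 5.78 and 7.99 CPM in Dhx37-/- (0.42, SE 0.84, adjusted p = 0.981), and in Sertoli-like nuclei the estimate was 0.08 (SE 0.57, adjusted p = 0.983). With at least 10 nuclei per library the share of genes passing was 0% in the spermatogonial gate (936 of 3582 genes at an unadjusted p under 0.05) and 0.227% in peritubular myoid-like nuclei, and of the 12 member values tested in these 3 classes none passed.

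*Trp73* in early spermatocyte-like nuclei stood at 25.8 and 42.9 CPM in WT and at 9.18 and 6.08 CPM in Dhx37-/-, on 18, 19, 11 and 19 UMIs. The groups did not overlap, and the log2 fold change was -2.26 (SE 0.51, adjusted p = 0.0282). The call was lost without Dhx37-/- replicate 2 (-1.90, adjusted p = 0.209). Outside cluster 16 the gated nuclei of this class held *Trp73* at 32.4, 48.4, 16.9 and 16.99 CPM, and inside it at 0, 0, 1.65 and 2.54 CPM on 0, 0, 1 and 6 UMIs. The level moved with the share of nuclei outside the cluster, and among those outside the WT libraries were also the higher ones. When only gated nuclei inside cluster 16 were kept, or when clusters replaced the gate, too few *Trp73* UMIs were left for a test. Markers of round spermatids, the class with the highest *Trp73*, summed to 2215, 2366, 1981 and 1731 CPM over 14 genes in the early gate, with none at 0. Of the 12 marker lists in this gate, 4 were lower in both Dhx37-/- libraries than in both WT libraries (round spermatid, T cell, endothelial and peritubular myoid), 5 were higher and 3 overlapped. Higher were the early spermatocyte list, the late spermatocyte list (655.5 and 744.3 against 1036 and 1057 CPM), the elongating spermatid list (4956 and 4657 against 7776 and 6353 CPM), the Sertoli list (123.4 and 99.2 against 285.5 and 230.6 CPM) and the Leydig list. The part of these lists in the results of this gate, for *Trp73*, *Bax*, *Sesn3* and the gene lists below, was not tested.

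In the same class *Bax* stood at 5.74 and 9.02 CPM in WT and at 15.9 and 24.0 CPM in Dhx37-/- (1.44, SE 0.58, adjusted p = 0.112), and *Sesn3* at 61.7 and 60.9 CPM in WT and at 108.5 and 99.8 CPM in Dhx37-/- (0.69, SE 0.30, adjusted p = 0.134). Neither passed, though neither overlapped between genotypes. Within the gate, *Bax* stood at 7.06, 59.3, 29.7 and 29.6 CPM inside cluster 16 (on 1, 3, 18 and 70 UMIs) and at 5.40, 2.55, 1.69 and 6.54 CPM outside it (on 1 to 5 UMIs per library), higher inside in 4 of 4 libraries and overlapping between genotypes outside. *Sesn3* stood at 77.7, 19.8, 120.5 and 100.8 CPM inside and at 57.6, 66.2, 96.3 and 96.7 CPM outside, so WT replicate 2 was lower inside, on 1 UMI, and the genotypes did not overlap on either side. The part of the makeup of the gate in these values was not tested. With classes from clusters *Bax* gave -0.15 (adjusted p = 0.831). By clusters, early spermatocytes gave 2 other members that passed, where 11.6% of the 12312 genes tested passed. *Bcl2* was lower in Dhx37-/- (34.1 and 16.6 CPM against 8.16 and 6.74 CPM in cluster 16, log2 fold change -1.93, adjusted p = 0.0256), on 59 UMIs in all. In gated nuclei inside that cluster *Bcl2* had 3, 2, 7 and 18 UMIs, and it was not among the members that passed there. *Trp63* was higher (5.68 and 0 CPM against 41.6 and 23.0 CPM, 2.96, adjusted p = 0.0283). WT replicate 2 had no *Trp63* UMI in that cluster, so this fold rests on a WT level near 0. In gated nuclei inside cluster 16, *Trp63* had 0 and 0 UMIs in WT and 33 and 69 UMIs in Dhx37-/- (adjusted p = 0.0144, 17.1% of 8200 genes passing), where the WT libraries held 51 and 17 nuclei. These sums held 141577 and 50576 UMIs in WT and 605737 and 2361496 UMIs in Dhx37-/-. The *Trp63* levels in Dhx37-/- were 54.5 and 29.2 CPM. The gene passed the filter on low counts through the Dhx37-/- libraries alone, so that pass is a comparison with counts of 0. Over the whole gate *Trp63* overlapped between genotypes (0.51, SE 0.48, adjusted p = 0.476).

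The other 5 values had an unadjusted p under 0.05 and did not pass after adjustment. The share of all genes at such a p was 8.09% in elongating spermatid-like, 5.25% in Leydig-like, 10.9% in macrophage-like and 8.59% in fibroblast-like nuclei. In elongating spermatid-like nuclei *Trp73* stood at 6.59 and 6.66 CPM in WT and at 2.79 and 4.06 CPM in Dhx37-/- (-1.01, SE 0.46, adjusted p = 0.613), and *Bcl2* at 5.58 and 6.66 CPM in WT and at 3.88 and 1.71 CPM in Dhx37-/- (-1.13, SE 0.51, adjusted p = 0.613). Of the 25 *Bcl2* UMIs of Dhx37-/- replicate 1, 15 came from 88 of its 2269 nuclei that lay outside the elongating spermatid clusters, and inside those clusters *Bcl2* stood at 5.65, 6.73, 1.61 and 1.77 CPM (-1.87, adjusted p = 0.421). In Leydig-like nuclei, *Bax* stood at 14.8 and 24.3 CPM in WT and at 30.6 and 42.9 CPM in Dhx37-/- (0.99, SE 0.42, adjusted p = 0.891). *Bcl2* in macrophage-like nuclei stood at 129.0 and 306.8 CPM in WT and at 100.6 and 84.6 CPM in Dhx37-/- (-1.18, SE 0.36, adjusted p = 0.241), and in fibroblast-like nuclei at 285.9 and 272.3 CPM in WT and at 210.2 and 197.3 CPM in Dhx37-/- (-0.50, SE 0.20, adjusted p = 0.561). Of these genes *Bcl2* had a lower estimate in Dhx37-/- in each of the 4 classes tested, and none passed. The share of all genes with the same sign throughout was not counted, so no trait of *Bcl2* was read from it. Over all nuclei the *Bcl2* estimate was higher in Dhx37-/- (0.36, SE 0.37, adjusted p = 0.626). T cell markers, whose cells had the most *Bcl2*, summed to 37.95, 81.5, 38.3 and 64.6 CPM over 10 genes in the macrophage-like gate, with 5 to 7 of them at 0 in each library. Higher in both Dhx37-/- libraries there were the Leydig (189.7 and 91.1 against 553.4 and 429.6 CPM), Sertoli, elongating spermatid and macrophage lists. The early spermatocyte list was lower (571.8 and 508.1 against 409.6 and 365.0 CPM), and the others overlapped. The part of these lists in the *Bcl2* values was not tested. With all nuclei of cluster 11 in place of the gate, *Bcl2* gave 0.27 (adjusted p = 0.735). That cluster held 695 *Bcl2* UMIs, of which 195 lay in macrophage-like nuclei, at 130, 306.8, 102.3 and 86.7 CPM. T cell-like nuclei numbered 3, 1, 25 and 17 in the whole libraries. The part of the other nuclei of the cluster in the 0.27 was not tested.

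Over all nuclei together, where fewer cells of a type and less RNA per cell cannot be told apart, 0% of 30032 genes passed with edgeR (4450 at an unadjusted p under 0.05), and DESeq2 called 219 higher and 63 lower. None of the 10 members was called by either. *Trp53* stood at 5.25 and 3.05 CPM in WT and at 7.64 and 7.94 CPM in Dhx37-/- (0.81, SE 0.36, adjusted p = 0.344), and *Cdkn1a* at 11.997 and 14.3 CPM in WT and at 16.3 and 10.4 CPM in Dhx37-/- (-0.08, SE 0.31, adjusted p = 0.915). *Bax* stood at 3.85 and 4.64 CPM in WT and at 9.28 and 10.2 CPM in Dhx37-/- (1.11, SE 0.31, unadjusted p = 0.00651, adjusted p = 0.303). *Trp73* stood at 20.9 and 51.4 CPM in WT and at 17.01 and 19.5 CPM in Dhx37-/- (-1.06, SE 0.40, unadjusted p = 0.0270, adjusted p = 0.314). The ungated nuclei, which held 463 of the 1066 *Bax* UMIs, did not overlap either, at 2.66 and 3.61 CPM in WT and 6.69 and 6.61 CPM in Dhx37-/-. Free RNA held *Bax* at 6.36 and 12.3 CPM in WT and at 19.6 and 19.96 CPM in Dhx37-/-. The gated nuclei differed in makeup in the same libraries. Early spermatocyte-like nuclei, in whose cluster mean *Bax* was highest, were 2.10%, 1.36%, 2.66% and 5.82% of nuclei and Leydig-like nuclei 2.15%, 0.952%, 3.20% and 2.96%, while elongating spermatid-like nuclei, which were poor in *Bax*, were 8.80%, 11.5%, 25.7% and 14.5%. Sertoli-like nuclei, whose mean *Trp53* was the highest, were 0.596%, 0.181%, 1.73% and 2.40% of nuclei. The part of free RNA and of these shares in the *Bax* and *Trp53* differences was not tested.

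WT replicate 2 or WT replicate 1 often stood apart from the other 3 libraries, and the calls followed. Without WT replicate 1, 7 pairs of member and class passed (*Trp73*, *Ccng1* and *Trp53* in early spermatocyte-like, *Sesn3* in late spermatocyte-like, *Trp73* and *Ccng1* in round spermatid-like and *Bcl2* in macrophage-like nuclei), and 5 members passed over all nuclei (*Trp73*, *Bax*, *Sesn3*, *Ccng1* and *Trp53*). The share of all genes that passed rose as well, to 19.6% in early spermatocyte-like, 15.7% in late spermatocyte-like, 3.89% in round spermatid-like and 2.85% in macrophage-like nuclei and to 18.9% over all nuclei. For *Trp53* in early spermatocyte-like nuclei the remaining WT library held 0 UMIs, and WT replicate 1, left out there, stood level with Dhx37-/- replicate 1 (both 10.0 CPM), so that pass is a comparison with a count of 0. These fits rest on WT replicate 2 as the only WT library and assume that it varies like the Dhx37-/- pair. Without WT replicate 2, the pairs that passed were again *Trp73* in early spermatocyte-like nuclei alone (15% of genes passing), and *Bax* over all nuclei (5.39%). Without Dhx37-/- replicate 2 no pair passed. In a test of whether the genotype difference of a gene varied between the 7 classes, 985 of 19014 genes passed (5.18%), and none of the 10 members did, with the smallest adjusted p of 0.296 for *Cdkn1a* and of 0.341 for *Trp73*.

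Of 32 further p53 targets, 22 regulators of p53 and 35 genes of the BCL2 family and caspases, lists that were written with earlier results of these data known, few passed between genotypes and all of those in early spermatocyte-like nuclei. Of 16 p53 targets tested there, 2 were lower in Dhx37-/- and none higher. *Bbc3*, the BH3-only killer Puma, stood at 44.5 and 90.2 CPM in WT and at 19.2 and 13.1 CPM in Dhx37-/- (-2.13, SE 0.44, adjusted p = 0.0250), and *Dram1*, a regulator of autophagy, at 167.8 and 178.2 CPM in WT and at 100.2 and 67.2 CPM in Dhx37-/- (-1.13, SE 0.30, adjusted p = 0.0381). Of 21 regulators tested, only *Atr*, the kinase that answers stalled replication forks, was higher, at 272.5 and 209.7 CPM in WT and at 455.0 and 544.4 CPM in Dhx37-/- (0.97, SE 0.28, adjusted p = 0.0465). Of 16 tested genes of the BCL2 family and caspases, 2 were higher and both encode mitochondrial proteins that lift caspase inhibition: *Htra2* (2.87 and 4.51 CPM in WT, 21.7 and 30.1 CPM in Dhx37-/-, 2.79, SE 0.64, adjusted p = 0.0285) and *Diablo* (80.3 and 101.5 CPM in WT, 202.9 and 180.1 CPM in Dhx37-/-, 1.01, SE 0.28, adjusted p = 0.0447). Both WT values of *Htra2* lay under the CPM of 3 UMIs in those sums (4.30 and 6.77). It passed the filter on low counts through the Dhx37-/- libraries, so its fold rests on a WT level near 0. The medians of the 3 lists in this class were 0.09, 0.23 and 0.39 on the log2 scale, against 0.05 over all genes tested, and 14.1% of all genes passed there, in a gate whose clusters differed between genotypes. In the other 6 classes and over all nuclei no gene of the 3 lists passed. Over all nuclei the medians were 0.11 for the targets, 0.19 for the regulators and 0.42 for the BCL2 family and caspases, against 0.0031 over all genes tested. In the last list 30 of 35 estimates were higher in Dhx37-/- (50.2% of all genes), and 13 of the 35 were higher at an unadjusted p under 0.05 and none lower, where 9.21% of all genes were higher at such a p. The part of the cell classes that each library held in these values was not tested.

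**Figure D4:**
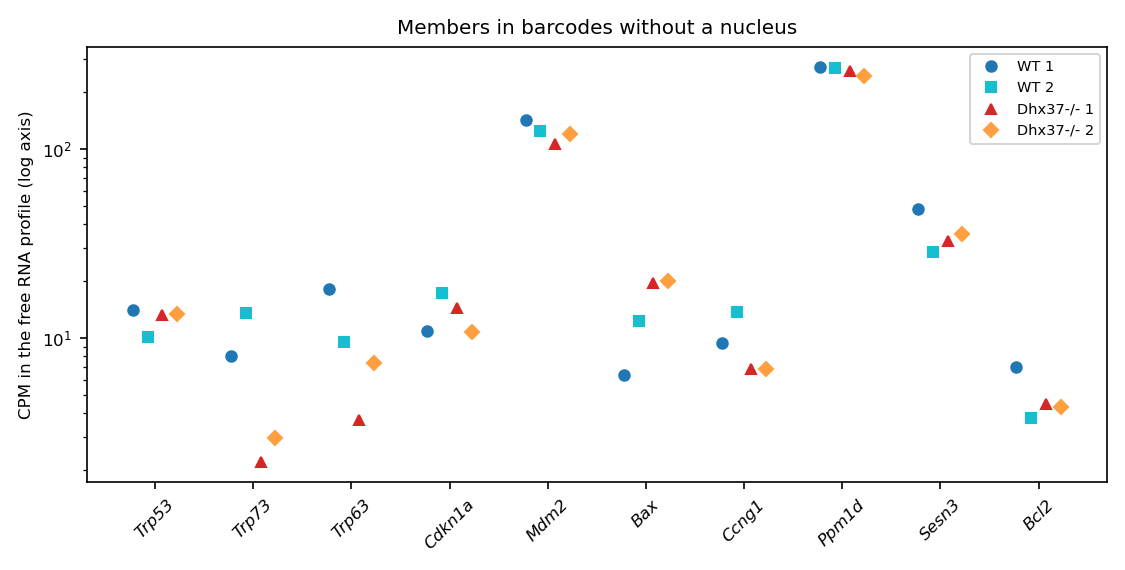
CPM (log axis) of the 10 genes in the free RNA profile of each library, taken from barcodes with too few UMIs for a nucleus. *Ppm1d* and *Mdm2* are the most abundant members there, *Bax* is higher in both Dhx37-/- libraries (19.6 and 19.96 CPM) than in both WT libraries (6.36 and 12.3 CPM), and *Trp73* is lower in both (2.20 and 2.96 against 8.05 and 13.6 CPM).

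The free RNA outside nuclei carried the members in another order than the nuclei did. *Trp73* stood at 8.05 and 13.6 CPM in WT and at 2.20 and 2.96 CPM in Dhx37-/-, and *Trp63* at 18.1 and 9.54 CPM in WT and at 3.69 and 7.39 CPM in Dhx37-/-. The same direction without overlap was seen for *Mdm2*, *Ccng1* and *Ppm1d*, with ratios of Dhx37-/- over WT means of 0.847, 0.594 and 0.930. *Trp53* (10.1 to 14.1 CPM) and *Cdkn1a* (10.8 to 17.2 CPM) overlapped. With 2 libraries per genotype these are descriptions of 4 profiles, without a test. The share of all genes without overlap in these profiles was not counted, so no trait of the members was read from it.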

How the data were processed

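The authors deposited raw UMI counts per gene and barcode from Cell Ranger (7.2.0 per the file headers), with bcl2fastq and Seurat 3.1.1 named in the submitters' processing notes. The genome is given as mm39 in the study's methods and as GRCm38/mm10 in those notes, so gene symbols and IDs were used as deposited, no coordinates were taken from them, and the promoter windows are placed on RefSeq's GRCm38.p6. Whether reads in introns were counted is not given in the sources used here.

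Barcodes at or above a UMI cut set per library (1017.3 and 926.3 in WT, 1603.3 and 1866.9 in Dhx37-/-) were called nuclei without a test. Barcodes below it with at least 500 UMIs (8615, 1085, 5280 and 3586) were tested in Python 3.11.15 (scanpy 1.11.5). The test was against the free RNA of barcodes ranked 45000 to 90000, at an adjusted p under 0.01. Called barcodes were kept within the study's limits of 500 to 5000 genes, a minimum of 500 UMIs and a mitochondrial share of no more than 25%. A nucleus entered a class by its score over 135 markers in 12 lists (at least 4 for somatic and 2 for germ classes, 3 markers, 3 marker UMIs and 1 above the next class) and with at most 1% mitochondrial UMIs, limits set after marker levels had been seen. Nuclei were also grouped into 18 Leiden clusters (2000 variable genes, 10 components, 20 neighbours, resolution 0.8). Scrublet called 4.18% to 4.57% of nuclei per library doublets, which were left out in an alternative only.

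Sums of counts over the nuclei of a class in a library were tested with edgeR 4.0.16 in R 4.3.3 (TMM, filterByExpr, quasi-likelihood F-test, two-sided, Benjamini-Hochberg over all genes tested, threshold 0.05), with 2 libraries per genotype as replicates. Classes needed 20 nuclei in every library. Tests with at least 10 nuclei were added after seeing the data. DESeq2 1.42.0 was an alternative. On simulated data, 76.2% of 189 genes changed by a fold of 4 between genotypes were recovered in Leydig-like sums, 91.6% of 190 in elongating spermatid-like sums, and 100% of 176 between Leydig-like and fibroblast-like sums. In each, 200 genes were changed before the filter on low counts, and false calls numbered 8, 17 and 7. All genes of a simulation shared a single dispersion, set by hand in the last, so these shares are not the power for sparse members. Intervals and floors of 3 counts cover counting error only.

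The members and lists were chosen with earlier results of these data known. Folds between genotypes are named for Trp53 and Cdkn1a in each class tested and for other members at an unadjusted p under 0.05, contrasts between neighbouring classes for every member, genes of the 3 lists where they passed (at most 5 per list and class), and the 3 genes with the most similar pattern for members with at least 100 UMIs. Highest against lowest classes, and clusters, were named after their values had been seen. The study's methods name a Wilcoxon test across nuclei, which takes nuclei as replicates and was not used.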

Additional observations from a re-analysis of the deposited data

Results flagged for a closer look

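In the free RNA profile, which lies outside the nuclei and outside the tested comparisons, *Bax* stood at a mean of 19.8 CPM in the Dhx37-/- libraries (19.6 and 19.96 CPM), above the control level of 9.32 CPM in WT (6.36 and 12.3 CPM). It was marked because a signal outside the nuclei exceeded that of the control samples, with 2.12 times the WT mean and no overlap between genotypes in 4 libraries. The difference was not tested, and the share of all genes without overlap in these profiles was not counted.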

How the results depend on the processing

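With 2 libraries per genotype, single libraries weighed heavily. Summed over the 7 classes, 1837 genes and 1 member passed between genotypes. Without a filter on low counts 2819 genes passed, with free RNA subtracted 918, and with a block of crossed pairs 6290. Leaving out 1 library moved the genes that passed between 161 (without Dhx37-/- replicate 2) and 7697 (without WT replicate 2), and the members from 0 to 7. Over all nuclei 0 members passed, and 0 to 5 with 1 library left out. Members that passed became 2 with classes from clusters and 2 with the crossed pairs, which added *Bcl2* in macrophage-like nuclei (-1.16, adjusted p = 0.0163, 1.99% of genes passing). Steps between neighbouring classes that passed numbered 26, and 17 to 24 with 1 library left out, and 7 of the 26 passed in every setting in which steps were run. Steps were not run with free RNA subtracted or with either block. With the replicate number as a block, 1715 genes and 1 member passed, and no named value changed its call. The labels give no shared animal or day for a number, and over genes the difference between the WT libraries (replicate 1 minus replicate 2) correlated with that between the Dhx37-/- libraries at -0.21 over all nuclei, which is why the crossed pairs were run after seeing the data.

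Estimates that did not pass and changed sign were *Cdkn1a* over all nuclei (0.019 with library totals only, and -0.39 to 0.20 with 1 library left out), *Trp53* in elongating spermatid-like nuclei (0.011 without the filter, 0.43 with the study limits on all barcodes, 0.27 with classes from clusters, 0.0030 with crossed pairs, and -0.73 to 1.07 with 1 library left out), *Trp53* in Leydig-like nuclei (-0.45 to 0.68 with 1 library left out), *Cdkn1a* in Leydig-like nuclei (-0.90 to 1.89), *Bax* in early spermatocyte-like nuclei (-0.15 with clusters) and *Bcl2* in macrophage-like nuclei (0.27 with clusters). Among steps, library totals alone turned *Mdm2* (0.018) and *Ppm1d* (0.0045) between late and round spermatid-like nuclei, and clusters turned *Trp73* between early and late spermatocyte-like nuclei (-0.24), *Bax* between Leydig-like and early spermatocyte-like nuclei (-0.0038) and *Bcl2* between fibroblast-like and macrophage-like nuclei (-0.44). Scaling by library totals lacks the TMM factors of 0.742 to 1.254 between classes, and the causes of the other turns were not tested.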
